A study of Mus musculus with 5 samples.

Results

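Nppb, Sst and Nts, the genes for the natriuretic peptide BNP, somatostatin and neurotensin, were followed with the genes of the somatostatin receptors across the cell types of the mouse dorsal root ganglion (DRG). The set was given as a list of 7 gene names, Nppb, Sst, Nts, Sstr1, Sstr2, Sstr3 and Sstr4. Its rule used no measured value, but the list was chosen with earlier results of these data known. Of these, 5 had a row among the 17267 genes used, and Sstr3 and Sstr4 were not analysed here. The data are single-cell RNA counts from the lumbar DRG of 5 untreated wild-type C57BL/6 mice aged 18 weeks, 3 males and 2 females, with no transgene, injury or drug in any of them. The ganglia were digested with enzymes and the cells were tagged in droplets, in 5 libraries that were taken as 1 mouse each and that could not be tied to the sex of a mouse. In all, 3352 cells had a type name, and these names cover 12 neuron types, satellite glia and endothelial cells. The libraries, called Sample1 to Sample5, held 164, 539, 474, 805 and 1370 cells and 13050375, 42666954, 28667742, 51281229 and 88886919 unique molecular identifiers (UMIs, each one a captured transcript). A barcode occurred in 2 libraries 7 times.

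Pruriceptors are the sensory neurons of the skin that report itch. One class of them makes BNP, somatostatin and neurotensin together and carries receptors for serotonin, leukotrienes and the cytokine IL-31. In the dorsal horn of the spinal cord, BNP acts through its guanylyl cyclase receptor on the next neurons of the itch pathway, and somatostatin acts through receptors coupled to the inhibitory G protein Gi, which lower cAMP, open potassium channels and quiet the cell. Somatostatin receptors also sit on some sensory neurons themselves, where their agonists lower excitability.

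The type NP_Nts, named by the study for Nts, carried the markers of that class. Il31ra, the IL-31 receptor, averaged 286 ± 26 (SD, n = 5 libraries) CPM (the UMIs of a gene in a sum, scaled to a common total of all its UMIs), Osmr, its partner chain, 336 ± 28.3 CPM, Htr1f, a serotonin receptor, 382 ± 60.7 CPM and the leukotriene receptor Cysltr2 79.3 CPM. Each of these 4 genes was higher there than in any of the other 13 types. NP_Nts held 400 cells, 10, 36, 41, 130 and 183 of them in Sample1 to Sample5, with a median of 53136 UMIs per cell. The related type NP_Mrgpra3 held 104 cells and carried the itch receptor gene Mrgpra3 at 468 CPM, against 7.83 CPM in NP_Nts. NP_Mrgprd held 900 cells and carried Mrgprd at 245 CPM. Because the types were found by clustering these same counts, a test between them gives the size of a difference against the spread of the libraries and is no independent evidence that the types exist.

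Each of the 5 genes lies on its own chromosome in the GRCm38 (mm10) build, by the GENCODE annotation. Nppb spans chr4:147985788-147987205 on the plus strand, Sst chr16:23889573-23890958 and Nts chr10:102481756-102490486 on the minus strand, Sstr1 chr12:58211772-58214444 and Sstr2 chr11:113619342-113626028 on the plus strand. Sstr2 is overlapped by Slc39a11 on the opposite strand and no other gene overlapped the other 4. The promoters of the 3 peptide genes are shown because the 3 are read out together in one cell type. Each is the 250 bases before the RefSeq start in the GRCm38.p6 assembly, written 5′ to 3′ on the strand of the gene, at chr4:147985650-147985899 for Nppb, chr16:23890845-23891094 for Sst and chr10:102490419-102490668 for Nts. The GENCODE spans of these 3 genes begin upstream of the RefSeq starts, so part of each window lies inside the span. Positions are counted from the RefSeq start. Capitals mark matches to the TATA box TATAAA, the cAMP response element TGACGTCA and the AP-1 motif TGANTCA, searched on both strands.
Nppb: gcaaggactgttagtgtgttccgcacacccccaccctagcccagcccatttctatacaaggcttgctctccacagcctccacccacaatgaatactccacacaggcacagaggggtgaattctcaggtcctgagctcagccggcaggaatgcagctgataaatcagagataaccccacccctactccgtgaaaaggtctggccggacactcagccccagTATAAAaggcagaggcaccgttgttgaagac
Sst: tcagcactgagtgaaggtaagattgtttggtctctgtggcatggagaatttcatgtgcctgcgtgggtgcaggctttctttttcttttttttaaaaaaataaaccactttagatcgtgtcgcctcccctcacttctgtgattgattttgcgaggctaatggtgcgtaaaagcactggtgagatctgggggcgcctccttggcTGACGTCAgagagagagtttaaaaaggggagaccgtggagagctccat
Nts: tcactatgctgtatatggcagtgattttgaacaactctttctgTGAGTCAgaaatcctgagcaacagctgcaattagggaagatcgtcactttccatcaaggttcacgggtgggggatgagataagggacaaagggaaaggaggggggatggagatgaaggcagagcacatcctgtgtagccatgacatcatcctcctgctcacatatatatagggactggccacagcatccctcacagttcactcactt

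No motif of the 3 occurred in all 3 promoters. The Nppb window held a TATA box that begins 31 bases before the start, which 12.4% of 32851 mouse promoters hold within the same length. The Sst window held the cAMP response element, a sequence known as the binding site of the factor CREB, 48 bases before the start, and the element was found in 1.55% of all promoters. The Sstr2 window, read at chr11:113619077-113619326, held the same 8 letters 58 bases before the start. The promoter of Sstr1 was not read. The Nts window held an AP-1 motif, found in 6.75% of all promoters, 207 bases before the start. It also held the shorter letters TGACG, part of the cAMP response element, on the minus strand at 166 bases before the start, where 17.8% of all promoters hold them. These matches describe letters only and no binding was measured.

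Nppb, a hormone gene of the heart that is used as a transmitter by itch neurons, was abundant in NP_Nts and close to 0 in every other type. Its levels there were 818, 369, 537, 705 and 711 CPM in Sample1 to Sample5, a mean of 628 ± 177 CPM (SD, n = 5). The highest value of any other type in any library was 5.78 CPM, in the satellite glia, so no library of NP_Nts overlapped any other type. Of all Nppb UMIs in the data, 99.2% were in NP_Nts cells. The next types in order, satellite glia at 2.13 CPM, PEP1_Dcn at 1.68 CPM and NP_Mrgpra3 at 1.22 CPM, did not differ from each other beyond their spread. No Nppb UMI was seen in the 58 cells of NF2_Ntrk2.Necab2 or in the 56 endothelial cells, which allows a share of cells with a UMI of up to 5.17% and 5.36%.

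Sst, the gene of the inhibitory peptide somatostatin, stood at 786, 408, 984, 1577 and 1296 CPM in the 5 libraries of NP_Nts, a mean of 1010.1 ± 452 CPM (SD, n = 5). Sample4 was the highest and Sample2 the lowest, which made it the peptide gene with the widest spread over libraries. The lowest of these values was far above the highest elsewhere, 7.64 CPM in the Th type of Sample5. Of all Sst UMIs, 99.2% were in NP_Nts. The types that followed were Th with a mean of 1.74 CPM, NF_Pvalb with 1.58 CPM and satellite glia with 1.07 CPM, and none of these neighbours differed beyond their spread.

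Nts, the gene of the peptide neurotensin, stood at 731, 1209, 906, 922 and 809 CPM in NP_Nts, a mean of 916 ± 182 CPM (SD, n = 5). Here Sample2, the lowest library for Nppb and Sst, was the highest. No library of NP_Nts overlapped the next type, NF2_Ntrk2.Necab2, but the separation was narrower than for Nppb and Sst, since that type reached 320 CPM in Sample2 and a mean of 64.2 CPM. NP_Mrgpra3 followed with 12.5 CPM, PEP1_Slc7a3.Sstr2 with 11.7 CPM, NF_Calb1 with 5.50 CPM and NP_Mrgprd with 4.94 CPM. NP_Nts held 93.7% of all Nts UMIs, and 73.6% of those in Sample2. Over all other neurons summed, Nts was 138-fold lower than in NP_Nts, from 52.0-fold in Sample2 to 2901-fold in Sample1, while the same ratio was 1145-fold for Nppb and 1265-fold for Sst. Much of this contrast lay in a few cells, looked at below. Without them the Nts mean of NF2_Ntrk2.Necab2 was 0.0837 CPM, and the Nts UMIs outside NP_Nts fell from 1291 to 209. The ratio without them was not computed.

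**Figure D1:**
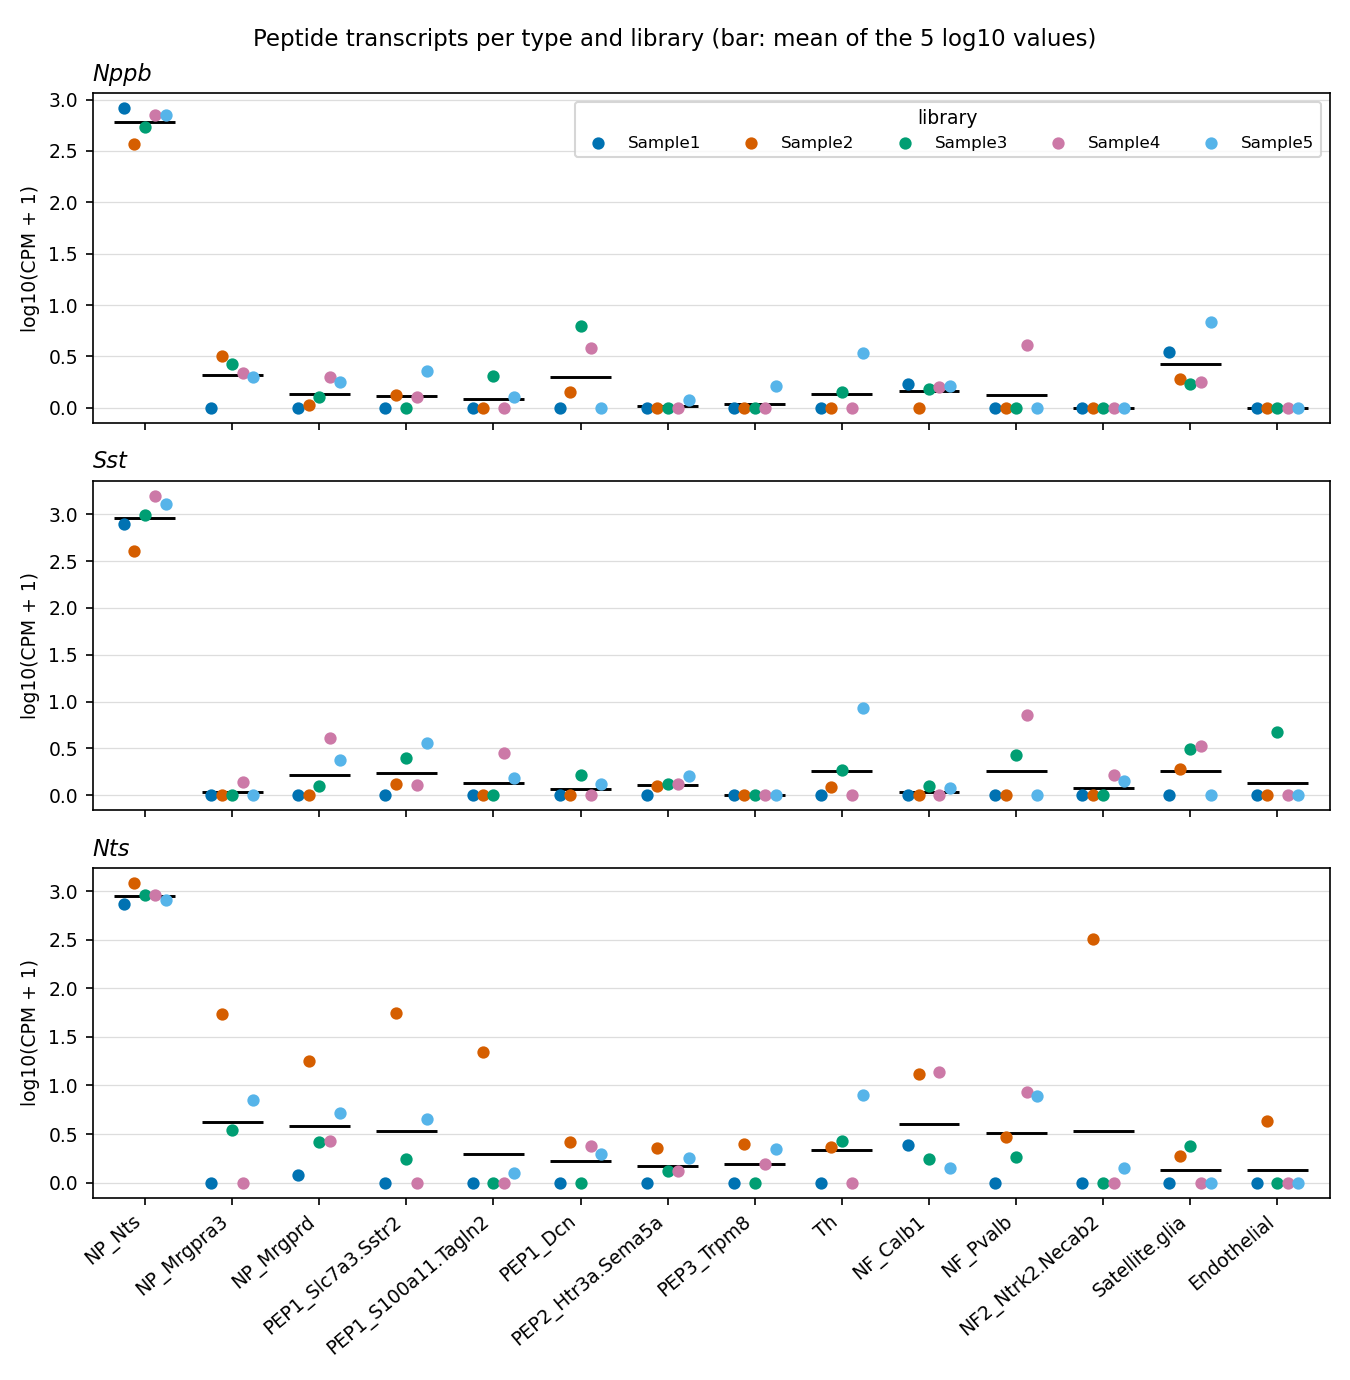
Levels of Nppb, Sst and Nts as log10 of CPM plus 1 for each of the 14 cell types, with 1 point per library, coloured by library, and a bar at the mean of the 5 log values. The 5 NP_Nts points sit between 369 and 1577 CPM for all 3 genes, and outside NP_Nts the highest point is Nts in NF2_Ntrk2.Necab2 of Sample2, at 320 CPM.

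The comparison of NP_Nts with the other 11 neuron types asked which genes set this class apart in UMIs summed per type and library. With the quasi-likelihood test of edgeR, a gene was called at a Benjamini-Hochberg adjusted p under 0.01 and a change of at least 2-fold. Of the 5 genes, 3 were called higher, where 9.34% of 11886 genes tested were, and 1 was called lower, where 11.5% were. Nts was higher by 7.76 ± 0.38 (SE) on the log2 scale (adjusted p = 1.4e-29), and by 9.48 when Sample2 was left out. Nppb (adjusted p = 4.4e-54) and Sst (adjusted p = 1.2e-51) were called higher in the same edgeR fit, where no fold is given because each had 1 neuron type at 0 in all libraries. Sstr1 was called lower (adjusted p = 5.7e-11) and Sstr2 was not called (adjusted p = 0.69), with 4 neuron types at 0. When the other neurons were instead added up per library, which gives large types more weight, edgeR also called Sstr2 lower, by -4.82 ± 0.47 (adjusted p = 4.3e-07).

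The same 3 peptides separated NP_Nts from both other types that the study named non-peptidergic (NP). Against NP_Mrgpra3, the other itch type, edgeR put Nppb higher by 8.80 ± 0.38 (adjusted p = 8.8e-29) and Nts by 6.19 ± 0.84 (adjusted p = 5.0e-09) on the log2 scale. Without Sample2 the Nts difference was 7.92. Sst was called too (adjusted p = 1.2e-25), with 1 UMI in all NP_Mrgpra3 cells and a ratio of 11969 between the types (95% counting interval 2148 to 472763). The background of that comparison was 6.86% of genes called higher and 8.44% lower. Against NP_Mrgprd, where 10.9% of genes were called higher and 10.2% lower, Nppb differed by 9.81 ± 0.33, Sst by 9.46 ± 0.42 and Nts by 7.23 ± 0.79, or by 8.20 for Nts without Sample2. Part of the low NP_Mrgprd levels lay in a few cells, looked at below. Without them Sst there was 0.275 CPM in place of 0.948, and Nppb 0.201 in place of 0.421. Sstr1 was lower in NP_Nts than in NP_Mrgprd (adjusted p = 6.3e-05 with edgeR), on 1 UMI against 101, a ratio of 23.3 (95% counting interval 4.09 to 931), and its difference from NP_Mrgpra3 did not pass (adjusted p = 0.076).

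Nearly every NP_Nts cell held all 3 peptide transcripts. Nppb was seen in 400 of 400 cells, Sst in 391 (97.8%) and Nts in 398 (99.5%). After each cell was thinned to 10000 UMIs these shares were 97.8%, 95% and 97%. In satellite glia, which should lack all 3 and whose cells held a median of 17729 UMIs, the shares were 2.41%, 2.81% and 1.20%. A median NP_Nts cell held 30 Nppb, 56 Sst and 38 Nts UMIs, and the highest held 139, 646 and 590.

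All 3 transcripts were found together in 390 of 400 cells (97.5%), against 97.3% for the product of the single shares. The share was 90.0%, 91.7%, 97.6%, 98.5% and 98.4% in Sample1 to Sample5, and with at least 2 UMIs of each it was 96.0%. Without the 5% of cells with the most UMIs it was 97.6%. A share this near its ceiling could hardly move, so the value does not bear on doublets. Spearman's rho of the CPM over the 400 cells was 0.37 for Nppb and Sst, 0.38 for Nppb and Nts and 0.36 for Sst and Nts. The cells share libraries, and the CPM values of a cell share its total. Libraries differed, with 0.22, 0.016 and 0.086 in the 36 cells of Sample2, 0.26, 0.50 and 0.38 in the 130 cells of Sample4, and 0.75, 0.77 and 0.67 in the 10 cells of Sample1. The coefficient of variation over cells was 0.467 for Nppb, 0.779 for Sst and 0.793 for Nts, so Nppb was the most even of the 3.

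The 9 NP_Nts cells with no Sst UMI were looked at singly, a choice made after their values were seen. All 9 had Nppb, with 3 to 49 UMIs, and 7 had at least 10 Nts UMIs. Sample2 held 3 of them, with 590, 317 and 13 Nts UMIs. The cell with 590 carried 3 Nppb, 1 Il31ra and 0 Htr1f UMIs, whereas Il31ra and Htr1f were each found in 399 of the 400 cells. Without the 7 cells, Nts in Sample2 was 865 CPM in place of 1209, Nppb 397 in place of 369 and Sst 456 in place of 408. The median Nts level of single cells was 680, 669, 804, 781 and 687 CPM in Sample1 to Sample5, so Sample2 had the highest sum and the lowest median.

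Outside NP_Nts the peptides did not keep the proportions they had inside it. The 14068 Nppb, 26724 Sst and 19073 Nts UMIs of NP_Nts gave Nts 31.9% of the 3 together. Among the 1615 peptide UMIs of all other cells, 120 were Nppb, 204 Sst and 1291 Nts, a Nts share of 79.9% (95% Clopper-Pearson interval 77.9 to 81.9, counting error only). In Sample2 the share was 98.8%. Satellite glia held 6 Nppb, 7 Sst and 3 Nts UMIs in all.

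Most of the outside Nts came from a few cells. A limit of 10 UMIs of any of the 3 peptides, chosen after the values were seen, left 19 cells outside NP_Nts. In 13 of them Nts stood without any Sst and with at most 1 Nppb UMI, from 10 to 296 Nts UMIs with a median of 44, and these 13 held 990 of the 1291 outside Nts UMIs. Sample2 held 9 of the 13, Sample4 1 and Sample5 3. They carried the names NF2_Ntrk2.Necab2, PEP1_Slc7a3.Sstr2, PEP1_S100a11.Tagln2, NP_Mrgprd, NP_Mrgpra3, NF_Calb1 and NF_Pvalb, and the cell with 296 was a single NF2_Ntrk2.Necab2 cell. Both NP_Mrgpra3 cells among them held 0 Mrgpra3 UMIs, and of the 5 NP_Mrgprd cells 3 held 0 Mrgprd UMIs and the others 18 and 21. Whether the Nts belongs to the types these cells were given was not tested. Il31ra was present in 2 of the 13, and their total UMIs were 0.212 to 2.44 times the median of their type and library.

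The other 6 cells were different. Each held all 3 peptides together with Il31ra and Htr1f, at 11 to 21 Nts, 8 to 50 Sst and 5 to 15 Nppb UMIs, and 2 came from Sample4 and 4 from Sample5. Their totals were 1.13 to 1.54 times the median of their type and library. The NP_Mrgprd cells among them held 14, 28 and 29 Mrgprd UMIs. Whether cells stuck together in 1 droplet was not tested. Without the 19 cells the outside UMIs fell to 70 Nppb, 78 Sst and 209 Nts, and the mean Nts level became 0.0837 CPM in NF2_Ntrk2.Necab2, 1.13 in NP_Mrgpra3, 0.348 in PEP1_Slc7a3.Sstr2, 1.06 in NP_Mrgprd and 2.42 in NF_Calb1. In each of these 5 types most of the Nts level lay in these few cells, and the mean also went from 4.32 to 0.248 CPM in PEP1_S100a11.Tagln2, from 3.40 to 1.01 in NF_Pvalb and from 1.99 to 0.604 in Th. In PEP1_Dcn, at 0.801 CPM, none of the 19 cells occurred. With the high cells included, a Nts UMI was seen in 90 of 900 NP_Mrgprd cells, from all 5 libraries, and in 19 of 180 NF_Calb1 cells, and at least 2 were seen in 18 and in 5 cells.

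**Figure D2:**
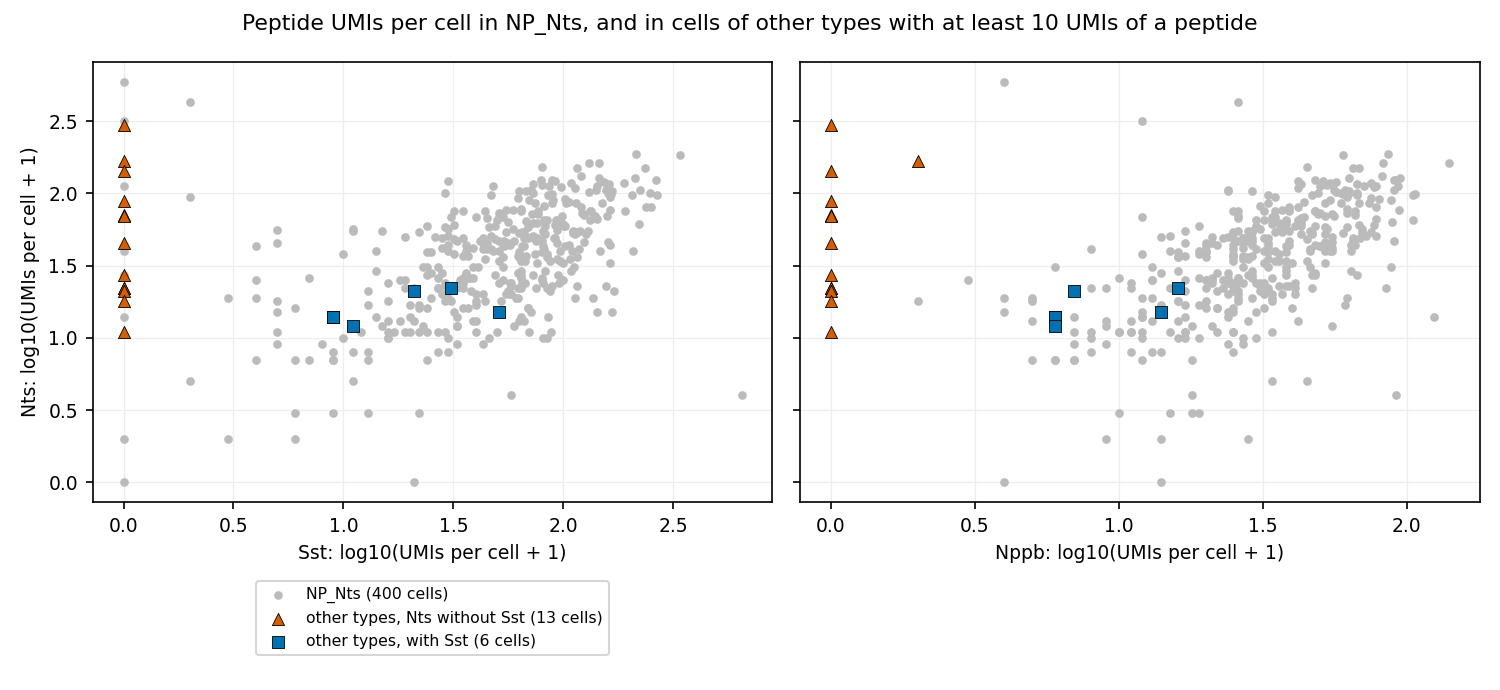
Nts UMIs per cell against Sst (left) and Nppb (right), all as log10 of UMIs plus 1, for the 400 NP_Nts cells (grey circles), the 13 cells of other types with Nts but no Sst (orange triangles) and the 6 with Sst (blue squares). The 13 triangles lie at 0 on the Sst axis and at 0 or 1 Nppb UMI, and the 6 squares lie among the NP_Nts cells.

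Sstr2, a somatostatin receptor coupled to Gi, was carried by the type that the study named for it, PEP1_Slc7a3.Sstr2. These 342 cells are peptidergic neurons, marked by Calca and Tac1, the genes for CGRP and substance P, and held a median of 38284 UMIs. Sstr2 stood there at 72.3, 61.8, 75.3, 80.6 and 65.6 CPM, a mean of 71.1 ± 7.52 CPM (SD, n = 5). The 5 libraries were close to each other and none overlapped another type. The next type, PEP1_S100a11.Tagln2, had 4.98, 3.25, 6.31, 5.55 and 4.74 CPM, a mean of 4.97 ± 1.14. PEP1_Dcn followed with 0, 1.23, 1.95, 6.26 and 3.56 CPM and PEP3_Trpm8 with a mean of 1.66 CPM, and from PEP1_S100a11.Tagln2 downwards neighbours overlapped. PEP1_Slc7a3.Sstr2 held 90.2% of all Sstr2 UMIs, at a level 144-fold above all other neurons together. Sstr2 was seen in 77.5% of its cells (265 of 342, Clopper-Pearson interval 72.7 to 81.8), against 17.1% in PEP1_S100a11.Tagln2 and 0.803% in satellite glia. Thinned by a random draw to 10000 UMIs per cell, the share in PEP1_Slc7a3.Sstr2 was 46.2% (158 of 342 cells), and a second draw gave 139 cells.

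Sstr1, a second Gi-coupled somatostatin receptor, was spread more widely. It was highest in PEP1_S100a11.Tagln2, at 31.5, 49.6, 50.5, 22.7 and 42.9 CPM (mean 39.4 ± 12.1, SD, n = 5). PEP1_Slc7a3.Sstr2 followed at 33.9, 17.6, 17.1, 18.9 and 16.7 CPM (mean 20.8 ± 7.34). NF_Pvalb, a type named for the proprioceptor marker Pvalb, stood at 26.8, 19.8, 17.6, 21.8 and 11.6 CPM (mean 19.5 ± 5.60). PEP1_Dcn came next at 20.5, 14.4, 10.4, 16 and 8.41 CPM (mean 13.9 ± 4.77), and the ranges of neighbours in this order overlapped. Types of a library come from the same mouse, and library by library NF_Pvalb was above PEP1_Dcn in 5 of 5, by 5.57 ± 1.51 CPM (SD of the paired differences), PEP1_S100a11.Tagln2 was above PEP1_Slc7a3.Sstr2 in 4 of 5, by 18.6 ± 16.7 CPM, and PEP1_Slc7a3.Sstr2 was above NF_Pvalb in 2 of 5. PEP3_Trpm8 stood at 6.16 CPM, PEP2_Htr3a.Sema5a at 2.32 and NP_Mrgprd at 1.19. The share of cells with a Sstr1 UMI was 58.0% in PEP1_S100a11.Tagln2, 39.8% in NF_Pvalb and 29.4% in PEP1_Dcn. It was 27.6% in NF2_Ntrk2.Necab2 (16 of 58 cells) and 21.3% in PEP1_Slc7a3.Sstr2. Cells of NF2_Ntrk2.Necab2 held a median of 96530.5 UMIs, against 38283.5 in PEP1_Slc7a3.Sstr2. The mean Sstr1 level of NF2_Ntrk2.Necab2 was lower, at 2.17 CPM against 20.8. A random draw thinned every cell to the same number of UMIs. Sstr1 was then seen in 2 of 58 NF2_Ntrk2.Necab2 cells and in 31 of 342 PEP1_Slc7a3.Sstr2 cells, which reversed their order. PEP1_S100a11.Tagln2 held 34.7% of all Sstr1 UMIs, a much smaller part than the top type held of the other 4 genes. No Sstr1 UMI was seen in 249 satellite glia cells, which allows a share of up to 1.20%.

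**Figure D3:**
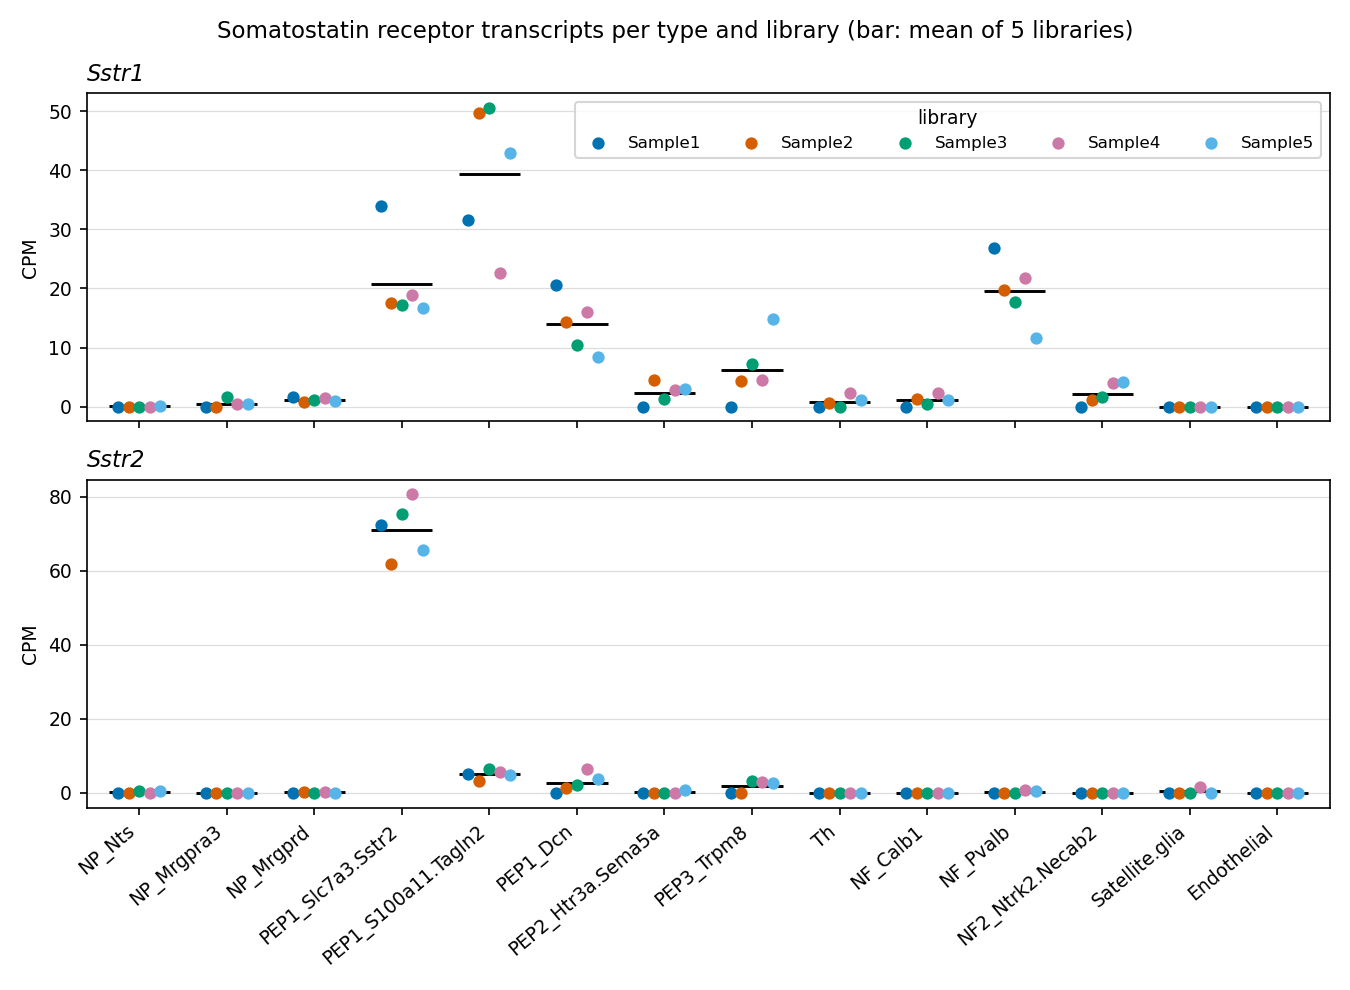
Levels of Sstr1 and Sstr2 in CPM for each of the 14 cell types, with 1 point per library and a bar at the mean of the 5 libraries. Sstr2 has a single high type, PEP1_Slc7a3.Sstr2, between 61.8 and 80.6 CPM, whereas Sstr1 is shared by the 3 PEP1 types and NF_Pvalb.

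The neurons that carried somatostatin were close to empty of both receptors. All NP_Nts cells together held 1 Sstr1 UMI and 4 Sstr2 UMIs, the latter in 2 cells, out of 21310364 UMIs. Low Sstr2 was not particular to NP_Nts. NP_Mrgpra3, Th, NF_Calb1 and NF2_Ntrk2.Necab2 held 0 Sstr2 UMIs, and NP_Mrgprd stood at 0.0726 CPM, against 0.155 CPM in NP_Nts. For Sstr1 NP_Nts stood at 0.0222 CPM, and the next lowest neuron type was NP_Mrgpra3 at 0.515 CPM, with overlapping libraries. The Sstr1 level of PEP1_S100a11.Tagln2 was 851 times that of NP_Nts (95% counting interval 152 to 33693), and the Sstr2 level of PEP1_Slc7a3.Sstr2 was 373 times that of NP_Nts (145 to 1372). Some cells held UMIs of both receptors. Both were seen in 54 of 342 PEP1_Slc7a3.Sstr2 cells (15.8%, product of shares 16.5%), in 17 of 181 PEP1_S100a11.Tagln2 cells (9.39%, product 9.94%) and in 11 of 163 PEP1_Dcn cells (6.75%, product 3.79%). In PEP3_Trpm8 both were seen in 5 of 168 cells (2.98%, product 0.539%). In the first 2 types the shares lay close to the products, and in PEP1_Dcn and PEP3_Trpm8 above them, on 11 and 5 cells. Thinned to 10000 UMIs per cell, 1 cell with both remained in each of these last types, too few to read a difference from the product.

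In the edgeR comparison of PEP1_Slc7a3.Sstr2 with the other 11 neuron types, both receptors and none of the 3 peptides were called, where 10.2% of genes tested were called higher and 5.50% lower. Sstr1 was higher by 2.90 ± 0.22 on the log2 scale (adjusted p = 9.1e-18). Sstr2 was called higher as well (adjusted p = 3.9e-36), with no fold given because 4 types were at 0. With the other neurons added up per library, NP_Nts is part of the sum, and Nppb, Sst and Nts were all called lower.

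Within the PEP1 group Sstr2 and Sstr1 had different patterns. Sstr2 was higher in PEP1_Slc7a3.Sstr2 than in PEP1_Dcn by 4.57 ± 0.33 (adjusted p = 3.4e-16, edgeR), against 3.03% of genes called higher, and than in PEP1_S100a11.Tagln2 by 3.86 ± 0.30 (adjusted p = 5.3e-15), against 4.25% called higher. In these 2 comparisons 6.26% and 4.29% of genes were called lower. Sstr1 did not pass against PEP1_Dcn (0.66 ± 0.30, adjusted p = 0.099). It was lower than in PEP1_S100a11.Tagln2 by -1.02 ± 0.26 (adjusted p = 0.0022, edgeR), a call that sits at the 2-fold limit and was lost with DESeq2 (-0.99, adjusted p = 0.017), in cells with up to 10% mitochondrial UMIs (-0.94), and without Sample2 (-0.87), Sample3 (-0.92) or Sample5 (-0.90). Sstr1 was lower in 4 of 5 libraries, Sample1 being the exception.

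Genes that receive and pass on itch signals were taken as a list. Of 11 tested against the other 11 neuron types, 10 were called higher and 0 lower, beside 9.34% and 11.5% of all genes. Il31ra, Osmr, Htr1f and Cysltr2 are also the markers by which NP_Nts was described above, and the list was drawn up with earlier results known, so their part in this count is no independent evidence. The 10 included the receptor chains Il31ra (7.68 ± 0.13) and Osmr (6.29 ± 0.13), the kinase Jak1 that signals from them (3.60 ± 0.08) and the serotonin receptor Htr1f (8.06 ± 0.18). The leukotriene receptor Cysltr2, the histamine receptor Hrh1, the lipid receptor S1pr1 and the irritant channel Trpa1 were called with at least 1 neuron type at 0, so no fold is given for them. The phospholipase Plcb3 (2.65 ± 0.10) and the capsaicin channel Trpv1 (3.29 ± 0.22) made up the rest. The mean of Trpv1 was higher in PEP1_Dcn (459 CPM), PEP3_Trpm8 (312 CPM) and PEP1_S100a11.Tagln2 (275 CPM) than in NP_Nts (177 CPM). Plcb3 stood at 135 CPM in NP_Nts, 103 CPM in NP_Mrgpra3 and 109 CPM in NP_Mrgprd, and was not called against either. Stat3, a transcription factor downstream of Jak1, was at 0.60 ± 0.09 and was not called, and Ptafr was too low to be tested. Adding up the other neurons per library, a form in which no gene of the list meets a type at 0, gave a median log2 change of 3.72 against -0.069 over all genes, and 9 of the 11 were called higher, but Trpa1 was called lower, at -1.01 ± 0.16. In that form 787 genes were called higher and 2060 lower of 12094 tested. Against NP_Mrgpra3 6 of the 11 were higher and Hrh1 was lower (-1.03 ± 0.27), beside 6.86% and 8.44% of all genes. Against NP_Mrgprd 8 were higher and Trpa1 was lower (-1.76 ± 0.27), beside 10.9% and 10.2%. In PEP1_Slc7a3.Sstr2 Trpv1 (3.21 ± 0.22) and Trpa1, for which 1 type was at 0, were called higher and 0 of the 11 lower against the other 11 types, beside 10.2% and 5.50% of all genes. With the other neurons added up, NP_Nts included, Trpv1 was higher and 7 of the 11 were lower, beside 920 genes higher and 1321 lower of 11834 tested in that form. Against PEP1_S100a11.Tagln2, where 4.29% of all genes were lower, 4 of the 11 were, among them Osmr (-3.30 ± 0.26). Against PEP1_Dcn, where 6.26% were lower, 3 were, S1pr1, Trpa1 and Trpv1, and 0 of the 11 were higher in either comparison, beside 4.25% and 3.03% of all genes.

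The other peptides of sensory neurons moved differently. Calca was lower in NP_Nts than in the other 11 types by -1.51 ± 0.27 and Calcb, the second CGRP gene, by -2.31 ± 0.24, while Tac1 did not pass (-0.40 ± 0.26). Of the 4 tested, 1 was called higher and 2 lower, beside 9.34% and 11.5% of all genes. With the other neurons added up per library Tac1 was called lower too, at -1.98 ± 0.24 (adjusted p = 4.9e-06, edgeR). Nmb, the gene of neuromedin B, was higher by 1.26 ± 0.15, but with the other neurons added up it was at -0.74 ± 0.11. In PEP1_Slc7a3.Sstr2, where 10.2% of all genes were called higher, all 4 were, Tac1 by 4.19 ± 0.18 and Calca by 3.98 ± 0.16, Nmb by 1.81 ± 0.14 and Calcb by 1.18 ± 0.17. With the other neurons added up, Tac1 and Calca were called and Nmb (-0.15) and Calcb (-0.17) were not. Against PEP1_Dcn 0 of the 4 were called, beside 3.03% of all genes higher and 6.26% lower. Against PEP1_S100a11.Tagln2 0 were called too, beside 4.25% and 4.29%.

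The receptors for BNP and neurotensin had their highest levels outside NP_Nts. Of 3 natriuretic genes tested, Nppb itself and Npr1, the cyclase receptor of BNP, were called higher in NP_Nts, beside 9.34% of all genes. Npr1 was low there, at 0.73 CPM against 2.35 CPM in NP_Mrgpra3 and 30.6 CPM in endothelial cells, and its call (adjusted p = 0.00038, edgeR) was made against 5 neuron types at 0. In the same list Npr2, the receptor for C-type natriuretic peptide, lay between 27.6 and 47.1 CPM in every neuron type and was not called. Of 3 neurotensin genes tested, Nts was called higher in NP_Nts and the 2 receptors lower, beside 9.34% and 11.5% of all genes. Ntsr2 was highest in PEP3_Trpm8 at 30.5 CPM and in PEP1_Slc7a3.Sstr2 at 29.2 CPM. It was higher in the latter than in the other 11 types by 3.01 ± 0.19 and lower in NP_Nts by -1.49 ± 0.36. Ntsr2 was as low in NP_Mrgpra3 (0.73 CPM) and NP_Mrgprd (0.80 CPM) as in NP_Nts (1.09 CPM), and was not called against either. Sort1, the sorting receptor that binds neurotensin, was highest in NF2_Ntrk2.Necab2 at 41.7 CPM and stood at 0.122 CPM in NP_Nts, where it was called lower (adjusted p = 4.0e-15, edgeR). It was also lower than in NP_Mrgpra3 (9.26 CPM), but was not called against NP_Mrgprd (0.505 CPM).

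Of 12 genes for peptide processing and dense-core granules tested in NP_Nts, 1 was called higher and 3 lower, with a median log2 change of -0.47, where 9.34% of all genes were called higher and 11.5% lower, so that the count of higher genes lay near the background. Scg2, a granule protein, was higher by 2.73 ± 0.15. It averaged 1280 CPM in NP_Nts, against 1400 CPM in PEP1_S100a11.Tagln2 and 1343 CPM in PEP3_Trpm8. The granule proteins Chgb (-1.30 ± 0.15) and Scg5 (-1.02 ± 0.15) and the release factor Cadps2 (-1.60 ± 0.39) were lower, and Scg5 was at -0.999 and no longer called with the library as a block. The convertases Pcsk1 and Pcsk2 and the amidating enzyme Pam were not called. In PEP1_Slc7a3.Sstr2 Scg2 (2.54 ± 0.15) and Pam (1.03 ± 0.15) were higher and Cpe (-1.43 ± 0.14), Scg3 (-1.09 ± 0.12) and Cadps2 (-2.86 ± 0.52) lower, beside 10.2% and 5.50% of all genes. Against NP_Mrgprd the 12 genes divided into 3 higher, Scg2, Pam and Pcsk1 (2.02 ± 0.33), and 5 lower, among them Scg3 (-1.90 ± 0.15), beside 10.9% and 10.2%.

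Among genes through which Gi-coupled receptors act, a potassium channel subunit and a cyclase had opposite signs in the Sst neurons and the Sstr2 neurons, each against the other neurons. The types were not tested against each other. Of 8 tested, Kcnj3, a subunit of the potassium channel opened by Gi, was higher in NP_Nts by 1.75 ± 0.19 and lower in PEP1_Slc7a3.Sstr2 by -3.39 ± 0.43. With the other neurons added up, Kcnj3 in NP_Nts was at 0.59 ± 0.14 and not called. Adcy5, an adenylyl cyclase that Gi inhibits, went the other way, higher in PEP1_Slc7a3.Sstr2 by 3.03 ± 0.15 and called lower in NP_Nts (adjusted p = 3.6e-10, edgeR). Rgs4, which shortens Gi signalling, was lower in PEP1_Slc7a3.Sstr2 by -1.28 ± 0.17. Kcnj3 was also lower there than in PEP1_Dcn (-4.18 ± 0.44) and PEP1_S100a11.Tagln2 (-4.53 ± 0.42). Against the same types, in that order, Adcy5 was not called (0.05 ± 0.18 and 0.61 ± 0.19). Rgs4 was not called against them either (-0.35 ± 0.21 and -0.06 ± 0.21). The genes of the Gi subunits, Gnai1, Gnai2, Gnai3, Gnao1 and Gnaz, were not called in either type against the other 11. In all, 1 of the 8 was called higher and 1 lower in NP_Nts, beside 9.34% and 11.5% of all genes, and 1 higher and 2 lower in PEP1_Slc7a3.Sstr2, beside 10.2% and 5.50%.

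**Figure D4:**
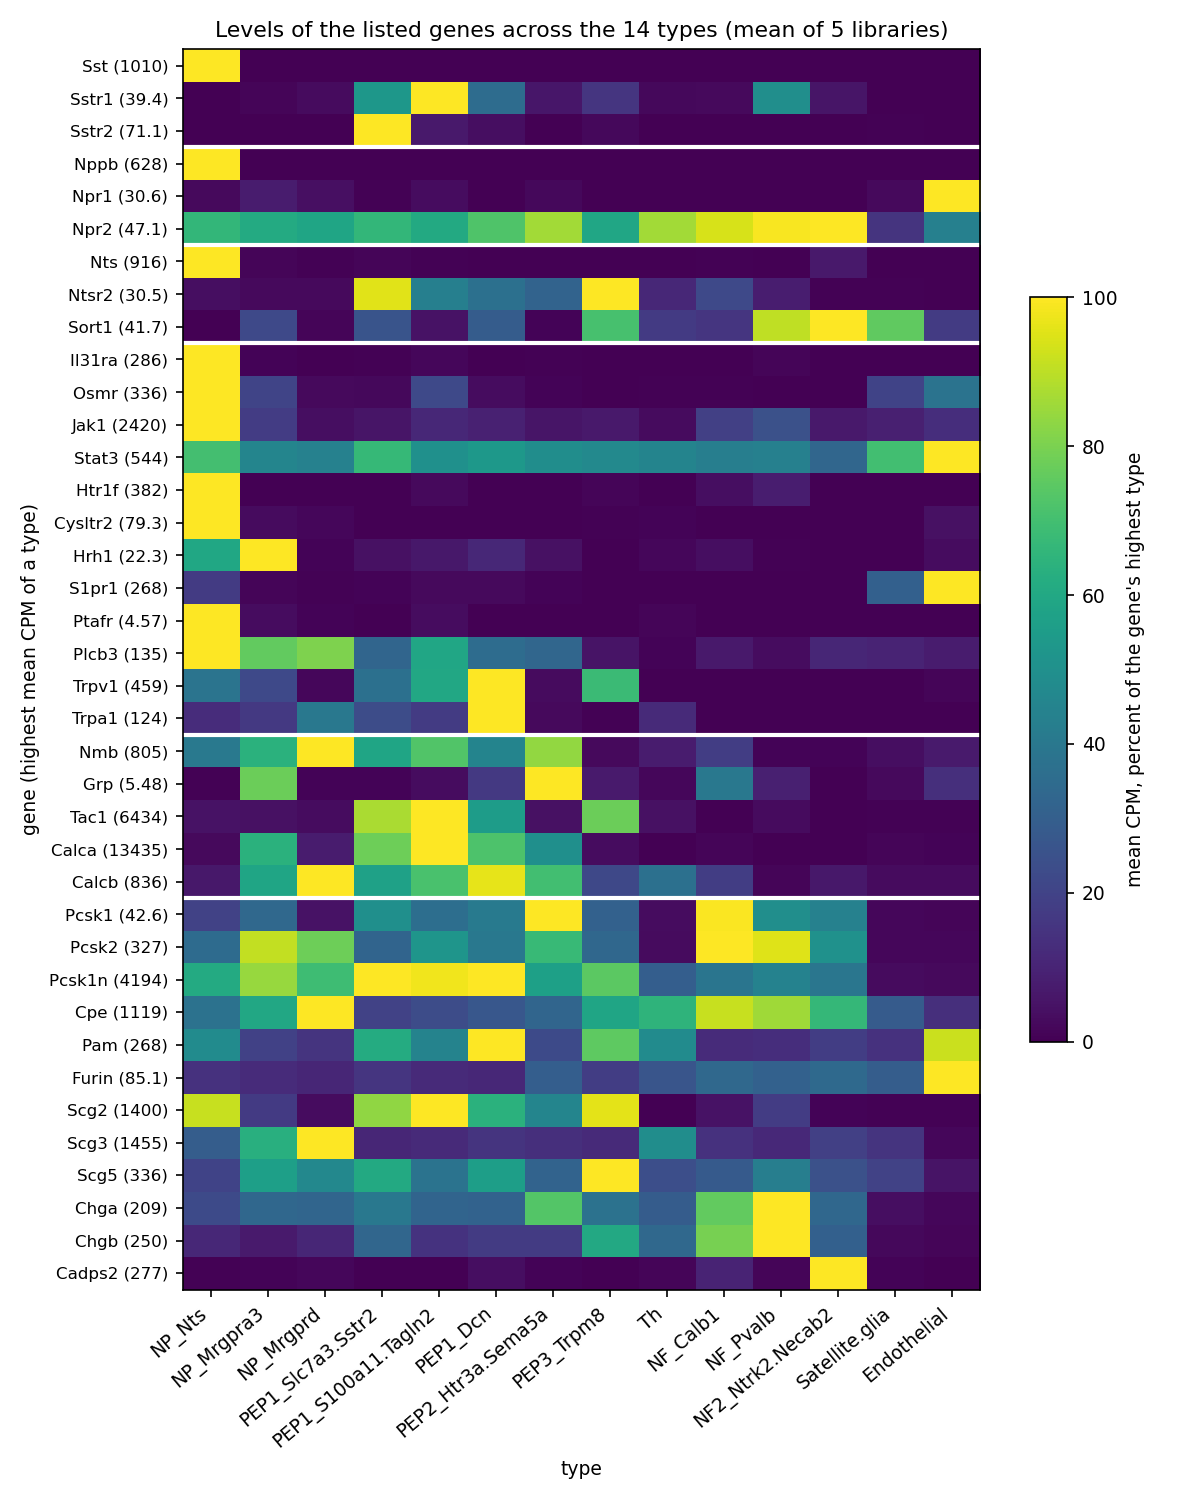
Mean CPM over 5 libraries of 38 genes of the lists (rows, lists parted by white lines) in the 14 cell types (columns), each row as a percent of the type where the gene is highest, whose mean CPM stands beside its name. The 3 peptides, Il31ra, Osmr, Jak1, Htr1f and Cysltr2 are highest in the NP_Nts column, Sstr2 in the PEP1_Slc7a3.Sstr2 column and Sstr1 in the PEP1_S100a11.Tagln2 column.

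The genes whose levels were most like those of each member were sought over the 70 sums of type and library, among 13474 genes with at least 100 UMIs, by Pearson's r of log2 CPM. For Nppb they were Fetub, Pla2g12b, 9230105E05Rik, Bmp8a and Sst, with r from 0.95 to 0.94. For Sst they were 9230105E05Rik, Pla2g12b, Klk11, Bmp8a and Ptafr, from 0.96 to 0.95. Nts had the same kind of neighbours, Fetub, Ptafr, Bmp8a, Pla2g12b and Klk11, at lower values from 0.82 to 0.80. Sstr1 was most like Zdhhc22 (0.83), Adcyap1, the gene of the peptide PACAP (0.82), Npy1r, Kcnmb2 and Cnr1 (0.73). Sstr2 was most like Igfbpl1 (0.87), Adh7, Avpr1a, Kcns2 and 2210039B01Rik (0.84). Over the means of the 14 types, 3 of the 5 stayed for Nppb, Sst and Sstr2, 2 for Sstr1 and 0 for Nts.

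Markers of other cells were measured in the same sums. The summed level of the satellite glia markers in NP_Nts was 170, 526, 305, 232 and 201 CPM in Sample1 to Sample5, with all 5 of 5 markers found and Glul the most abundant. Sample2 was the highest for glial markers and for Nts, and the lowest for Nppb and Sst, and the part of glial RNA in these values was not tested. Apoe, the main glial marker, stood at 78916 CPM in the satellite glia, whose 249 cells held 3 Nts UMIs. Summed markers of other cells in NP_Nts averaged 208 CPM for Schwann cells, most of it Pmp22, 6.07 CPM for endothelium with Cdh5 at 0, 1.51 CPM for fibroblasts with Col1a1 and Pdgfra at 0, and 0.555 CPM for macrophages with Csf1r at 0. Pmp22 was highest in the Th neurons, at 1531 CPM, so the Schwann cell sum is not specific to Schwann cells. In PEP1_Slc7a3.Sstr2 the glial sum ran from 187 to 408 CPM. In PEP1_S100a11.Tagln2 it ran from 308 CPM in Sample4 to 1464 CPM in Sample1. Sample1 was also the exception in the Sstr1 difference between these types, and the part of glial RNA in it was not tested.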

How the data were processed

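The authors aligned droplet 3′ reads to mm10 with the UCSC gene model and Cell Ranger, filtered and clustered cells with Seurat, and deposited raw UMI counts per gene and cell with a type name per cell. Of the rows, 4 that name no mouse gene (6.37e-05% of UMIs) were left out. Library names come from cell counts per type, all 70 of which equal those in the study's supplementary table. Counts were summed per type and library, giving 70 sums, and divided by their totals (CPM). edgeR 4.0.16 in R 4.3.3 (TMM, filterByExpr, quasi-likelihood) tested 11886 genes over all sums at once, and in every such test the adjusted p is Benjamini-Hochberg's. DESeq2 1.42.0, other normalization, filters, cell choices, the library as a block and each library left out were alternatives. The edgeR test of NP_Nts against the other neuron types was checked on simulated data. These had no library effect, and changes were set only in genes with many UMIs. The check therefore does not cover genes with few UMIs or types at 0. Types of a library share 1 source. Deviations from type means of the same library correlated at 0.0306 to 0.452 over 20 pairs of sums. These paired NP_Nts with NP_Mrgpra3 and NP_Mrgprd, and PEP1_Slc7a3.Sstr2 with PEP1_Dcn and PEP1_S100a11.Tagln2, in each of the 5 libraries. Doublets were not called. The members and gene lists were chosen with earlier results of these data known, and the genes named are the members, the lists and the 5 genes most like each member. Columns of unused samples numbered 0. Sstr3, Sstr4, Sstr5, Kcnj5 and Tafa4 were not analysed here. Intervals and limits cover counting error only.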

Additional observations from a re-analysis of the deposited data

Results flagged for a closer look

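A level was looked at again where 1 of the 5 libraries stood apart from the other 4 by Dixon's test, over 33 groups of 5 sums with at least 10 UMIs of the gene. How often chance sets a library apart in such groups was not computed. Some groups hold few UMIs and the libraries differ in size, so the number of groups set apart cannot be read against chance. Nts in Sample2 stood apart in 5 types, at 320 CPM in NF2_Ntrk2.Necab2, 54.3 in PEP1_Slc7a3.Sstr2, 53.9 in NP_Mrgpra3, 21.3 in PEP1_S100a11.Tagln2 and 17.0 in NP_Mrgprd, and in each of them the Sample2 cells with at least 10 Nts UMIs were without Sst. Sample5 stood apart in Th for Sst, at 7.64 CPM, and for Nts, at 6.94 CPM, where 1 Th cell held 20 UMIs of each. Sst in NF_Pvalb stood apart in Sample4, at 6.23 CPM, where 1 cell held 10 Sst UMIs. Sstr1 in PEP1_Slc7a3.Sstr2 was high in Sample1, at 33.9 CPM, from 16 cells.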

How the results depend on the processing

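Of the levels of the 5 genes recomputed under other settings, 656 moved by less than 1 SD of the libraries and 4 by more, and of the fold changes 331 kept their direction and call, 2 gained a call, 5 lost one and 2 turned direction. The 5 lost calls are Sstr1 between PEP1_Slc7a3.Sstr2 and PEP1_S100a11.Tagln2, given above. Both turns came from adding up the other neurons per library, chosen after seeing the data, where Nts in PEP1_Slc7a3.Sstr2 went to -2.73 and Sst to -6.55, since NP_Nts is then part of the sum. The same setting gave 787 genes higher and 2060 lower in NP_Nts, and 920 and 1321 in PEP1_Slc7a3.Sstr2. With an adjusted p under 0.05 and no minimum fold, genes higher and lower numbered 3457 and 2870 for NP_Nts and 3081 and 2331 for PEP1_Slc7a3.Sstr2 against the other 11 types, 2183 and 2092 for NP_Nts against NP_Mrgpra3, 3110 and 2992 against NP_Mrgprd, 1334 and 1738 for PEP1_Slc7a3.Sstr2 against PEP1_Dcn, and 1104 and 1135 against PEP1_S100a11.Tagln2. Without a filter on low counts 1676 genes were higher in NP_Nts. RLE normalization moved the median log2 change of all genes in NP_Nts against the other 11 types to -0.11. With the library as a replicate block, 1 named gene beside Scg5 lost its call, Kcnj3 between NP_Nts and NP_Mrgprd, at 0.98, and no call of the 5 genes changed. Shares of cells depend on depth. Thinned by a random draw to 10000 UMIs, they were 97.8% for Nppb and 97.0% for Nts in NP_Nts, 28.2% for Sstr1 in PEP1_S100a11.Tagln2 and 46.2% for Sstr2 in PEP1_Slc7a3.Sstr2, and with at least 2 UMIs they were 99.8% for Nppb, 41.4% for Sstr1 and 62.0% for Sstr2. The Nts part of the peptide UMIs outside NP_Nts, 79.9%, was 58.5% without the 19 cells and ranged from 54.8% (without Sample2) to 86.2% as each library was left out.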
